A study of Mus musculus with 12 samples.

Results

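Type I interferon-stimulated antiviral genes were followed in mouse dendritic cells exposed to nanoparticles. A set of 40 genes was chosen by symbol as interferon-stimulated, and an array probe was taken as a member's where its RefSeq accession belonged to that symbol. Of the 40, 32 genes had such a probe and passed the filter on dim signals, among 18404 genes tested. The other 8, Mx1, Mx2, Herc6, Dtx3l, Ifi203, Xaf1, Samd9l and Sp100, were not matched to a probe and are not analysed here. No measured value entered the choice, but the set was drawn up with earlier results of these data known.

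Type I interferons are secreted by cells that sense microbes, and they act through the receptor IFNAR, the kinases JAK1 and TYK2 and a transcription factor complex that includes STAT2 and IRF9. That complex binds interferon-stimulated response elements in the promoters of the genes described here. Their products sense viral RNA, degrade it, block its translation or hold back virus particles, and dendritic cells that detect microbial products through Toll-like receptors are known to switch them on by way of interferon beta.

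The cells came from bone marrow of female mice aged 6 to 8 weeks, with strain and genotype not given in the labels. They were grown with GM-CSF at 20 ng/ml, a culture that yields dendritic cells along with other myeloid cells, and the loosely attached cells were taken on day 7. Nanoparticles of γ-PGA, poly(γ-glutamic acid), a biodegradable polymer, were added at 300 µg/ml for 6, 12 or 24 h, and the 0 h group had no exposure time. Each of the 4 groups held 3 samples, stated to be independent experiments, measured on 1-colour Agilent arrays. No culture without nanoparticles at 6, 12 or 24 h was among the samples used here, so exposure and time in culture cannot be told apart. The p-values below measure only the spread between the 3 samples of a group. In bulk RNA, fewer cells of a type and less RNA per cell cannot be told apart.

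The promoters of several members carry the core of the response element, and the stretches around it are shown because the set is known as a target of the complex that binds it. RefSeq windows of 300 bases, from 250 before to 50 after the start of transcription (assembly GRCm38.p6), were found for 23 of the 32 genes. The letters searched were GAAA NN GAAA as 1 run, with N for any base, on both strands, where overlapping matches were all counted. Matches were found in 13 of these 23 genes, a share of 56.5%, and in 3.99% of all 27025 genes with a window. The 6 stretches below are those that lie wholly before the start, and capitals mark the matched letters. They read 5′ to 3′ along the gene's own strand, so a match on the other strand appears as TTTC NN TTTC.
Isg15, chr4:156200863-156200908, minus strand: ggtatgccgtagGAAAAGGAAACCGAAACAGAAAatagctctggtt
Ifit1, chr19:34640773-34640825, plus strand: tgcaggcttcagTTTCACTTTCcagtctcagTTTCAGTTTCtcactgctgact
Ifit3, chr19:34583361-34583428, plus strand: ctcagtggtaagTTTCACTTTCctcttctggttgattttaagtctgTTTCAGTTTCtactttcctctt
Rsad2, chr12:26456551-26456584, minus strand: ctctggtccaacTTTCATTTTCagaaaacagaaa
Oas3, chr5:120777713-120777746, minus strand: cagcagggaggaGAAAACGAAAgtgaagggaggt
Bst2, chr8:71537575-71537614, minus strand: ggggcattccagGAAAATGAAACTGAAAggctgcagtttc
Isg15 held 3 overlapping matches in this stretch and Bst2 held 2, whereas Rsad2 and Oas3 held 1 each. Ifit1 and Ifit3 each held 2 separate matches. The other genes with a match were Ddx58, Eif2ak2, Ifi205, Ifih1, Ifitm3, Oas1a and Oas1g. Oas1a and Oas1g carried the same letters over the stretch of 40 bases around their 2 matches. Among members with a window but without these letters in it were Cmpk2, Isg20, Ifit2, Oasl1 and Oasl2, which were among the members with the largest changes below. A match is a description of the letters and not a measured binding site.

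Values came from 2 deposited sources that carry the same 12 sample labels and are kept apart throughout. The scanner files gave a spot intensity, used here as log2 of the processed signal minus the 75th percentile of the array, so that 0 is a spot at that percentile. The value table gave linear ratios, each probe divided by its median over the 3 samples at 0 h. Calls of change needed an adjusted p under 0.05, with the adjustment over every gene tested, and at least 2-fold, which is 1 on the log2 scale, and ± gives the standard error of the fit (SE).

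Over the whole array, the sources did not match at 24 h. Scanner arrays labelled 24 h correlated with the 0 h arrays at a mean r of 0.991 over 18404 genes, against 0.923 with the 6 h arrays and 0.91 with the 12 h arrays. Over all genes, the change at 24 h against 0 h correlated between the sources at r = -0.075, compared with 0.729 at 6 h and 0.538 at 12 h. Whether a label stands for the same sample in both sources cannot be told from the files, so every time below is the time as labelled in its own source. Between 50.9% and 59.6% of the spots on an array were well above background. The arrays lay on 3 slides, with all 0 h arrays and 1 array of 6 h on slide 1, 2 arrays each of 6 h and 12 h on slide 2, and 1 array of 12 h and all 24 h arrays on slide 3. Fitting the slide as a block compares neighbouring times within a slide. It gave 16 members higher at 6 h against 0 h, 31 higher at 12 h against 6 h and 32 lower at 24 h against 12 h. In that fit the change from 0 h to 6 h rests on the 1 array of 6 h on slide 1. The change from 12 h to 24 h rests on the 1 array of 12 h on slide 3. The dendritic cell markers Itgax, H2-Ab1 and Cd74 were well above background on all 12 arrays, and Cd209a was not above background at 6 or 12 h.

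In the scanner values the set came up in steps and peaked at 12 h. At 6 h against 0 h, 15 of 32 members were called higher, against 10.2% of all genes tested, and 1 was called lower, against 15.9%. At 12 h against 0 h, 32 of 32 were called higher, against 13.7% of all genes, and 0 lower, against 16.9%, with 0 lower also at an unadjusted p under 0.05 in limma. The median change of the members was 0.88 at 6 h and 2.71 at 12 h, while the median over all genes was -0.06 and -0.03. All 32 members had their highest group mean at 12 h, as did 29.3% of all genes.

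From 6 h to 12 h, 31 of 32 members were called higher, against 4.88% of all genes, and the exception, Parp14, changed by 0.93 ± 0.049 at its chosen probe, though both of its further probes were called higher (1.19 and 1.61). The 3 arrays at 12 h lay above the 3 at 6 h for all 32 members, compared with 28.1% of all genes. From 12 h to 24 h, 32 of 32 members were called lower, against 12.9% of all genes, with a median of -2.71, and 0 higher, against 18.1%, with 0 higher at an unadjusted p under 0.05 in limma. On the arrays labelled 24 h no member was called against 0 h in either direction, where 0.696% of all genes were called higher and 0.141% lower. At an unadjusted p under 0.05 in the same limma fit, 12 members were higher and 1 lower at 24 h, and the largest change in size was 0.34. The comparisons share the 0 h or the 12 h arrays and are not independent of each other.

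In the value table the set peaked earlier and then declined. At 6 h, 16 members were called higher than at 0 h, against 13.3% of all genes, and 1 lower, against 11.8%. At 12 h, 12 were called higher, against 15.7%, and 4 lower, against 12.1%. At 24 h, 3 were called higher, against 13.3%, and 9 lower, against 13%. The 4 lower at 12 h (12.5% of the members) and the 3 higher at 24 h (9.38%) are shares near those of all genes, whereas the 9 lower at 24 h were 28.1%. Quantile scaling of the table gave 10 higher at 6 h in place of 16 and 1 higher at 24 h in place of 3. Over all genes it gave 1106 higher at 6 h in place of 2439 and 1148 at 24 h in place of 2447. At 12 h it lost the calls of Ifih1, Cmpk2, Parp14 and Ly6a as higher, and over all genes gave 1152 higher in place of 2889. The median of the members went from 1.01 at 6 h to 0.32 at 12 h and -0.38 at 24 h, beside 0.14, 0.22 and 0.12 over all genes.

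Directly between 6 h and 12 h, 17 members were called lower in the value table, against 2.73% of all genes, and 0 higher, against 3.07%. At an unadjusted p under 0.05, 29 were lower and 3 higher in the same limma fit. From 12 h to 24 h, 13 members were called lower, against 3.17% of all genes, and 0 higher, against 1.4%, also at an unadjusted p under 0.05 in limma. Quantile scaling of the table gave 5 in place of 13, while over all 18404 genes it gave 64 lower in place of 584. The highest group mean fell at 6 h for 26 members, compared with 23.9% of all genes, and the lowest at 24 h for 22, compared with 26.1%.

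**Figure D1:**
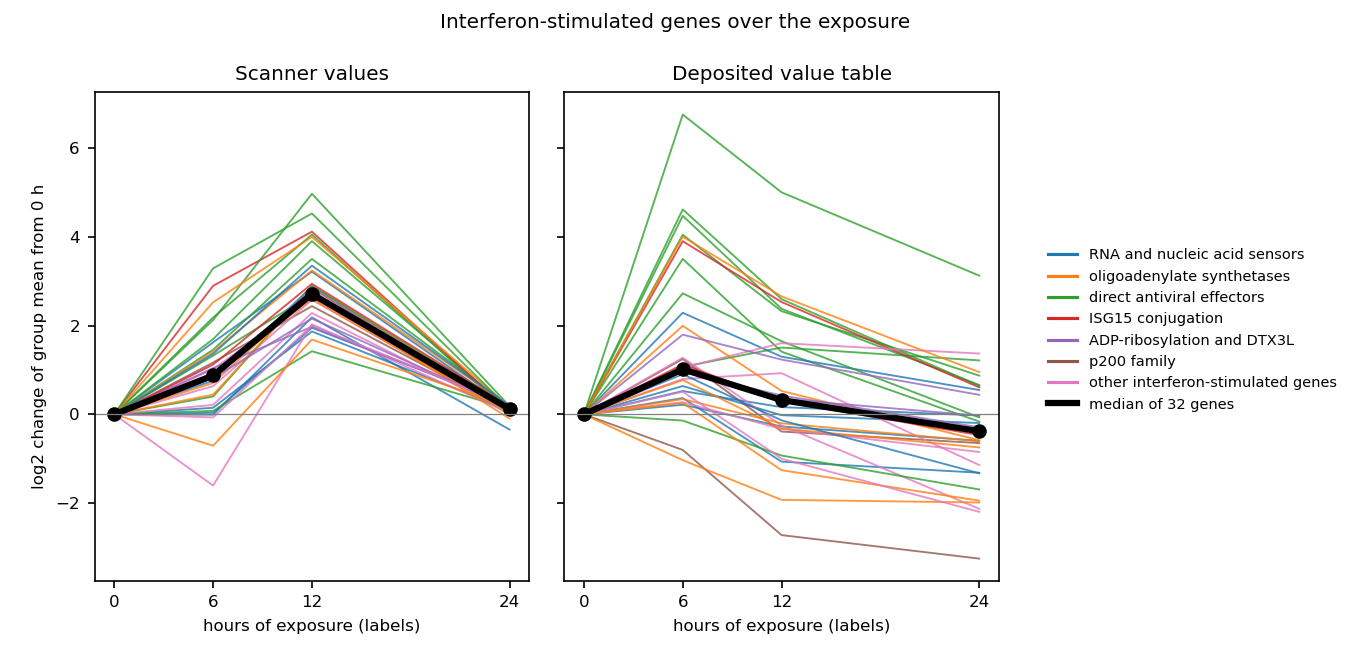
Change of each member's group mean from 0 h (vertical axis, log2 units) against hours of exposure, with scanner values on the left and the value table on the right. Each thin line is 1 of 32 genes coloured by role and the black line is their median, which reaches 2.71 at 12 h in the scanner values and 1.01 at 6 h in the value table.

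Set side by side, 12 members were called higher at 6 h in both sources and 12 at 12 h in both, against 6.61% and 6.4% of all genes. Opposite calls were made for 1 member at 6 h, for 4 at 12 h against 0 h and for 17 at 12 h against 6 h. Of all genes tested, 0.456%, 1.6% and 0.826% had opposite calls in these comparisons. The 17 were Ddx58, Zbp1, Oas1g, Oas3, Oasl1, Oasl2, Ifit1, Ifit2, Ifit3, Rsad2, Cmpk2, Isg20, Isg15, Ifi204, Ifi205, Ifi44 and Rtp4. With quantile scaling of the table the falls of Zbp1 (-0.87), Oas1g (-0.88), Isg20 (-0.95) and Ifi44 (-1.26) were not called. The fall of Zbp1 was also lost with 6 h replicate 1 (-0.988) or 12 h replicate 3 (-0.994) left out. With normexp and quantile scaling the scanner rise of Oas1g was not called (0.93). From 12 h to 24 h, 13 members were called lower in both sources and the other 19 in the scanner values alone, against 1.69% and 11% of all genes.

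**Figure D2:**
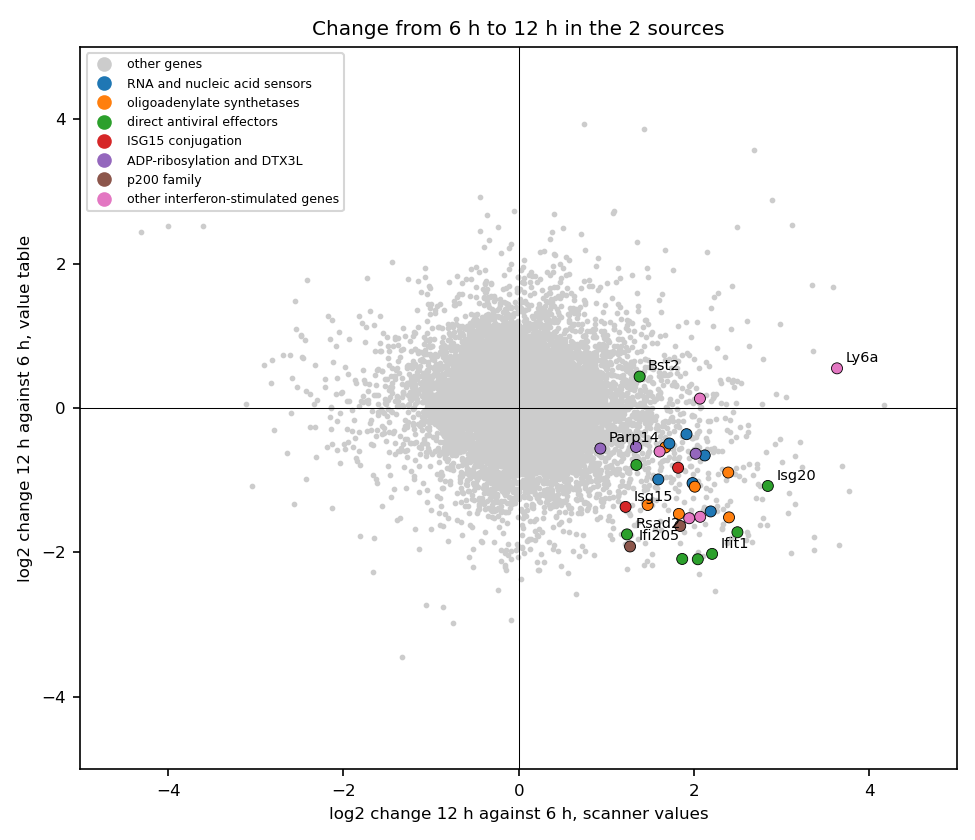
Log2 change from 6 h to 12 h in the scanner values (horizontal axis) and in the value table (vertical axis), 1 point per gene, with the 32 members coloured by role over the other genes in grey. All 32 members lie right of 0 and 29 lie below 0, with Bst2, Ly6a and Ly6c1 above it.

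The sensors of viral nucleic acid were 6 genes. In the scanner values 2 of 6 were called higher at 6 h and 6 of 6 at 12 h, against 10.2% and 13.7% of all genes. The value table had 1 of 6 (16.7%) higher at each time, near the 13.3% and 15.7% of all genes. At 12 h 1 other, Ddx58, was called lower in the table, as were 12.1% of all genes. Zbp1 encodes a sensor of Z-form nucleic acid that can trigger cell death. Zbp1 scanner values were 3.69, 3.71 and 3.67 at 0 h, 5.10, 4.94 and 5.13 at 6 h, 7.02, 7.01 and 7.09 at 12 h and 3.88, 3.89 and 3.88 at 24 h. Zbp1 ratios in the value table were 0.983, 1.00 and 1.08 at 0 h, 2.05, 1.85 and 1.83 at 6 h, 0.969, 0.948 and 0.872 at 12 h and 0.473, 0.355 and 0.401 at 24 h. Scanner groups at 6 h and 12 h lay apart from 0 h and from each other, whereas in the value table the 6 h samples lay above every 0 h sample and those at 12 h and 24 h lay below. Zbp1 rose by 1.36 ± 0.052 at 6 h and 3.35 ± 0.052 at 12 h in the scanner values (adjusted p = 8.65e-12), and in the table it changed by 0.90 ± 0.099 and -0.14 ± 0.099 at these times and fell by 1.33 at 24 h.

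Ifih1 encodes MDA5, a sensor of long double-stranded RNA. Ifih1 scanner values were 2.02, 1.88 and 2.00 at 0 h, 3.68, 3.45 and 3.64 at 6 h, 5.22, 5.18 and 5.15 at 12 h and 2.06, 2.05 and 2.14 at 24 h. Ifih1 ratios were 1.00, 0.966 and 1.07 at 0 h, 5.53, 4.90 and 4.43 at 6 h, 2.56, 2.55 and 2.35 at 12 h and 1.52, 1.41 and 1.51 at 24 h. Every sample at 6 h and 12 h was above every 0 h sample in both sources. Ifih1 rose by 1.62 ± 0.066 at 6 h and 3.21 ± 0.066 at 12 h in the scanner values and by 2.29 ± 0.082 and 1.30 ± 0.082 in the value table. A further Ifih1 probe gave 3.38 and 0.79 at 12 h in the 2 sources, the latter not called. With quantile scaling of the table the Ifih1 change at 12 h was not called (0.90).

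Dhx58 encodes LGP2, which modulates the other RNA helicase sensors. Dhx58 scanner values were 2.40, 2.41 and 2.43 at 0 h, 3.27, 3.00 and 3.24 at 6 h, 5.29, 5.38 and 5.19 at 12 h and 2.46, 2.49 and 2.51 at 24 h. Dhx58 ratios were 1.00, 0.917 and 1.03 at 0 h, 1.57, 1.59 and 1.42 at 6 h, 0.943, 1.01 and 0.946 at 12 h and 0.908, 0.798 and 0.863 at 24 h. The scanner values rose at 12 h, by 2.88 ± 0.073, while the ratios at 12 h overlapped those at 0 h. At 6 h the change was 0.76 ± 0.073 in the scanner values and 0.64 ± 0.07 in the table, both under 2-fold.

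Ddx58 encodes RIG-I, a sensor of short viral RNA with a free triphosphate end. Ddx58 scanner values were 1.49, 1.60 and 1.5 at 0 h, 1.57, 1.42 and 1.59 at 6 h, 3.70, 3.79 and 3.66 at 12 h and 1.27, 1.15 and 1.14 at 24 h. Ddx58 ratios were 1.06, 0.977 and 1.00 at 0 h, 1.43, 1.29 and 1.20 at 6 h, 0.532, 0.466 and 0.454 at 12 h and 0.399, 0.407 and 0.414 at 24 h. The 12 h samples stood highest in the scanner values and below every 0 h and 6 h sample in the value table. Ddx58 rose by 2.18 ± 0.062 at 12 h in the scanner values (adjusted p = 3.72e-10) and the table had it lower, at -1.06 ± 0.078 (adjusted p = 6e-07). A pair of further Ddx58 probes carried the same opposite calls at 12 h, with 2.42 and 2.37 in the scanner values and -1.14 and -1.42 in the table. Eif2ak2 encodes PKR, which halts translation when it binds double-stranded RNA, and Adar encodes an editing enzyme that marks such RNA as self. Eif2ak2 rose by 1.95 ± 0.062 and Adar by 1.87 ± 0.049 at 12 h in the scanner values, and neither was called at any time in the value table.

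The oligoadenylate synthetase family makes the second messenger that activates RNase L, an enzyme that degrades RNA. In the scanner values 2 of 6 members were called higher at 6 h and 6 of 6 at 12 h, against 10.2% and 13.7% of all genes. The value table had 2 higher and 1 lower at 6 h, and 1 higher and 2 lower at 12 h. Of all genes, it had 13.3% higher and 11.8% lower at 6 h, and 15.7% and 12.1% at 12 h. With 6 genes, a count of 1 (16.7%) is near these shares. Family members resemble each other in sequence, and Oas1a and Oas1g closely so, which leaves their separate values uncertain.

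Oasl1 lacks the synthetase activity and is known to restrain translation of Irf7. Oasl1 scanner values were 3.22, 3.21 and 3.19 at 0 h, 5.76, 5.68 and 5.77 at 6 h, 7.22, 7.29 and 7.11 at 12 h and 3.37, 3.39 and 3.37 at 24 h. Oasl1 ratios were 1.00, 0.982 and 1.01 at 0 h, 17.0, 16.2 and 14.7 at 6 h, 6.26, 6.51 and 6.06 at 12 h and 1.98, 1.90 and 1.90 at 24 h. No group at 6 h or 12 h overlapped 0 h in either source, and the higher of the pair was 12 h in the scanner values and 6 h in the table. Oasl1 rose by 2.52 ± 0.049 at 6 h and by 3.995 ± 0.049 at 12 h in the scanner values and by 3.999 ± 0.058 and 2.66 ± 0.058 in the table at 6 h and 12 h. Between 6 h and 12 h it rose by 1.47 ± 0.049 in the first and fell by 1.34 in the second. Its spot was saturated on 2 of 3 arrays at 12 h, and these were taken at their value, so its scanner changes that use 12 h may be understated.

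Oasl2 encodes a related synthetase-like protein. Oasl2 scanner values were 2.98, 2.93 and 2.92 at 0 h, 4.39, 4.33 and 4.35 at 6 h, 6.19, 6.26 and 6.11 at 12 h and 3.13, 3.12 and 3.16 at 24 h. Oasl2 ratios were 1.01, 0.940 and 1.00 at 0 h, 4.20, 3.89 and 3.67 at 6 h, 1.40, 1.48 and 1.37 at 12 h and 0.874, 0.528 and 0.614 at 24 h. Scanner values were highest at 12 h and ratios at 6 h, with no overlap with 0 h at either time in either source. Oasl2 rose by 1.41 ± 0.043 and 3.24 ± 0.043 in the scanner values, and in the table it rose by 1.99 ± 0.15 at 6 h and changed by 0.53 ± 0.15 at 12 h.

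Oas3 and Oas2 encode larger synthetases and lie side by side in the genome. Oas3 scanner values were 0.78, 0.75 and 0.69 at 0 h, 1.22, 1.09 and 1.24 at 6 h, 3.58, 3.52 and 3.64 at 12 h and 0.87, 0.95 and 0.77 at 24 h. Oas3 ratios were 1.00, 0.984 and 1.05 at 0 h, 1.32, 1.12 and 1.20 at 6 h, 0.443, 0.383 and 0.447 at 12 h and 0.326, 0.220 and 0.254 at 24 h. The 12 h samples were the highest in the scanner values, and in the table they were below every sample at 0 h and 6 h. Oas3 rose by 2.84 ± 0.061 at 12 h in the scanner values and fell by 1.26 in the table (adjusted p = 8.71e-06), a call that the mean of its probes, at -0.75, did not keep.

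Oas2 scanner values were 1.43, 1.41 and 1.44 at 0 h, 0.73, 0.68 and 0.75 at 6 h, 3.09, 3.16 and 3.07 at 12 h and 1.56, 1.59 and 1.64 at 24 h. Oas2 ratios were 0.994, 1.00 and 1.01 at 0 h, 0.519, 0.482 and 0.472 at 6 h, 0.251, 0.282 and 0.260 at 12 h and 0.284, 0.221 and 0.260 at 24 h. Its 6 h samples lay below the 0 h samples in both sources, and at 12 h the scanner values lay above 0 h while the ratios lay lower still. The change at 6 h was -0.71 ± 0.04 in the scanner values, under 2-fold, and -1.03 ± 0.087 in the table, where Oas2 was called lower (adjusted p = 1.91e-06). At 12 h Oas2 rose by 1.68 ± 0.04 in the scanner values and fell by 1.92 in the table.

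Oas1g scanner values were -4.38, -4.80 and -4.48 at 0 h, -3.75, -3.84 and -3.94 at 6 h, -1.84, -1.88 and -1.78 at 12 h and -4.39, -4.64 and -4.92 at 24 h. Oas1g ratios were 0.502, 1.00 and 1.11 at 0 h, 1.69, 1.30 and 1.26 at 6 h, 0.578, 0.474 and 1.05 at 12 h and 0.577, 0.503 and 0.409 at 24 h. Its spot was well above background on 1 of 3 arrays at 0 h and on 1 of 3 at 24 h, so the levels there are poorly measured. It passed the filter on dim signals only through its spots at 6 h or 12 h. Oas1g rose by 2.72 ± 0.14 at 12 h in the scanner values. The table's fall from 6 h to 12 h, 1.09 on the log2 scale, had an adjusted p of 0.0252 and was lost with 12 h replicate 1 left out (-0.99), with 12 h replicate 2 left out (-0.85) and with 6 h replicate 1 left out (-0.95). Oas1a, its close relative, rose by 2.59 ± 0.061 at 12 h in the scanner values and was not called in the table, where it changed by -0.20 ± 0.083.

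The direct antiviral effectors were 8 measured genes. In the scanner values 6 of 8 were called higher at 6 h and 8 of 8 at 12 h, with median changes of 1.57 and 3.70. Of all genes, 10.2% and 13.7% were called higher at these times. The value table had 7 of 8 higher at both times, against 13.3% and 15.7% of all genes, with medians of 3.77 and 1.98.

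Rsad2 encodes viperin, a radical-SAM enzyme that makes a chain-terminating nucleotide, and Cmpk2, its neighbour in the genome, encodes a mitochondrial nucleotide kinase. Rsad2 scanner values were 2.76, 2.71 and 2.79 at 0 h, 6.06, 5.97 and 6.09 at 6 h, 7.39, 7.30 and 7.13 at 12 h and 2.86, 2.90 and 2.87 at 24 h. Rsad2 ratios were 1.01, 0.918 and 1.00 at 0 h, 114, 108 and 94.1 at 6 h, 32.4, 32.7 and 28.6 at 12 h and 9.45, 7.82 and 8.30 at 24 h. In the table all 3 samples at 24 h stayed above 0 h, while the scanner arrays labelled 24 h were close to those at 0 h. Its spot was saturated on all 3 arrays at 12 h, so the scanner change there is at least 23.0-fold against 0 h, with the saturated spots taken at their value. A pair of further Rsad2 probes gave log2 changes of 5.42 and 5.36 at 12 h in the scanner values and 4.87 and 5.02 in the table. At 6 h Rsad2 rose 9.76-fold (3.29 ± 0.063 on the log2 scale, adjusted p = 4.54e-11) in the scanner values and 108-fold (6.75 ± 0.095, adjusted p = 7.41e-12) in the table. It was still higher by 3.12 ± 0.095 at 24 h in the table.

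Cmpk2 scanner values were 0.71, 0.65 and 0.72 at 0 h, 3.02, 2.72 and 2.89 at 6 h, 4.75, 4.77 and 4.71 at 12 h and 0.63, 0.71 and 0.82 at 24 h. Cmpk2 ratios were 1.00, 0.992 and 1.03 at 0 h, 12.5, 11.2 and 10.5 at 6 h, 2.70, 2.78 and 2.55 at 12 h and 1.01, 0.863 and 0.837 at 24 h. Scanner values climbed from 6 h to 12 h without overlap and ratios dropped between the same times without overlap. Cmpk2 rose by 2.18 ± 0.074 and 4.05 ± 0.074 in the scanner values and by 3.50 ± 0.082 and 1.41 ± 0.082 in the table. With quantile scaling of the table its change at 12 h was not called (0.88). The fall from 6 h to 12 h in the table, 2.09 on the log2 scale, stood beside a rise of 1.86 ± 0.074 in the scanner values.

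Isg20 encodes an exonuclease that degrades single-stranded RNA. Isg20 scanner values were 1.505, 1.47 and 1.47 at 0 h, 3.64, 3.62 and 3.56 at 6 h, 6.46, 6.38 and 6.503 at 12 h and 1.69, 1.65 and 1.66 at 24 h. Isg20 ratios were 0.932, 1.00 and 1.11 at 0 h, 6.95, 7.10 and 6.04 at 6 h, 3.29, 3.28 and 2.93 at 12 h and 1.06, 0.882 and 0.961 at 24 h. Isg20 rose by 4.97 ± 0.041 or 31.3-fold at 12 h in the scanner values (adjusted p = 3.7e-13), with all 3 samples above those at 6 h. In the table Isg20 rose by 2.72 ± 0.095 at 6 h and 1.65 ± 0.095 at 12 h, and the 24 h ratios overlapped those at 0 h.

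**Figure D3:**
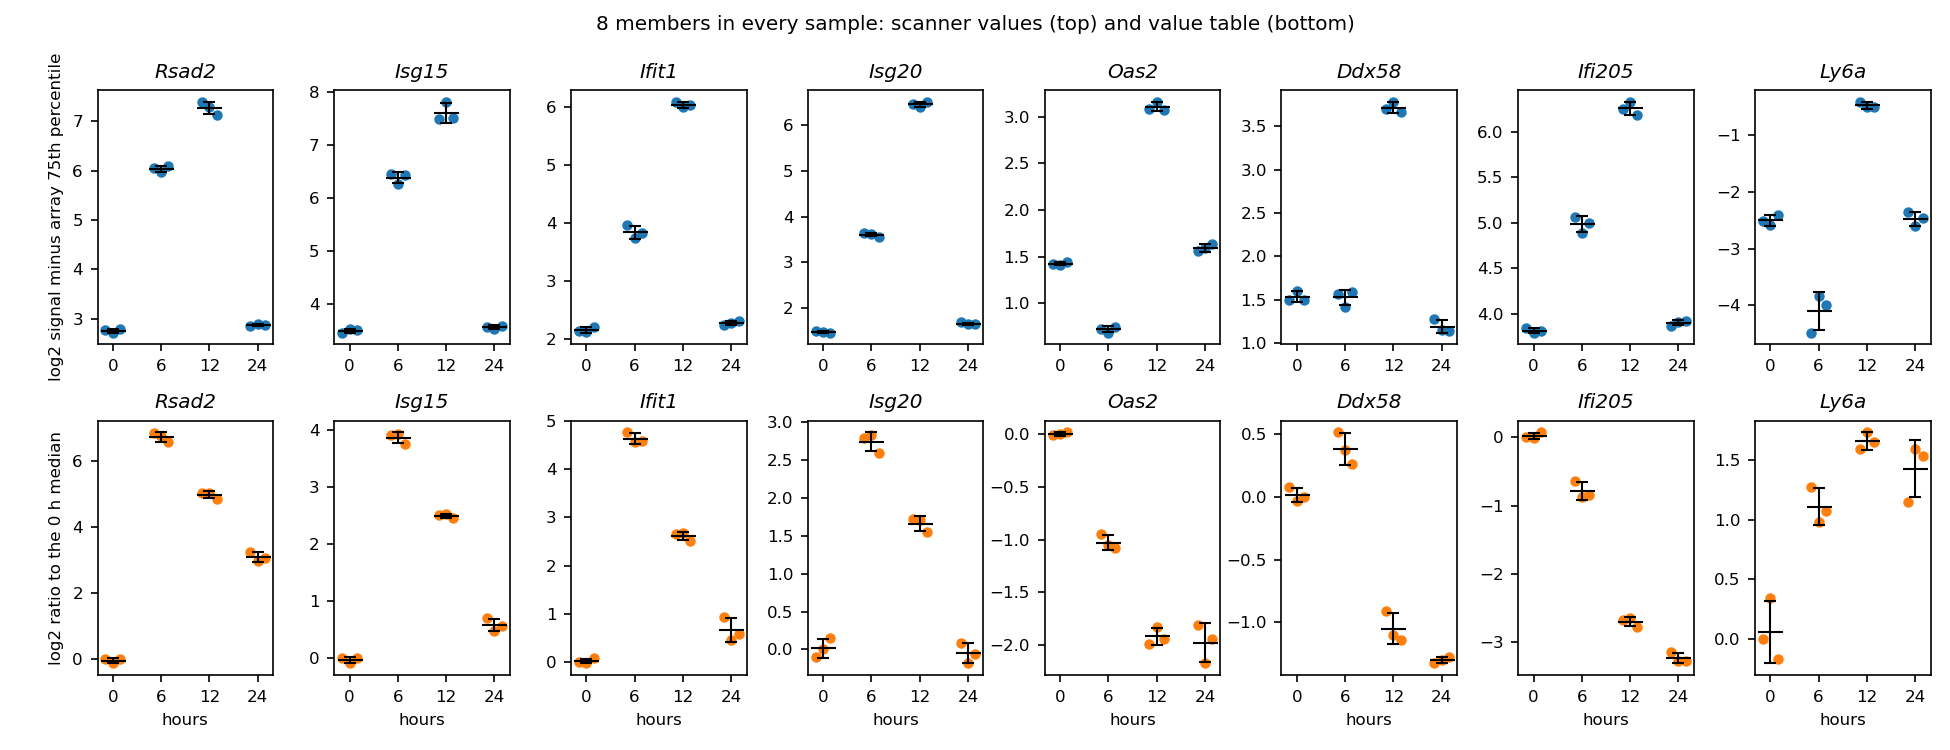
Values of 8 members in every sample, with log2 scanner values in the upper row and log2 ratios to the 0 h median in the lower row, against the labelled hours. Points are the 3 samples, the dash is their mean and the bar 1 SD. Rsad2, Isg15, Ifit1 and Isg20 are highest at 12 h above and at 6 h below, whereas Oas2, Ddx58 and Ifi205 at 12 h lie above 0 h in the upper row and under it in the lower.

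The Ifit genes encode proteins that bind viral RNA ends and block translation, and Ifit2 and Ifit3 lie side by side. Ifit1 scanner values were 2.12, 2.12 and 2.20 at 0 h, 3.96, 3.74 and 3.82 at 6 h, 6.10, 6.00 and 6.04 at 12 h and 2.23, 2.27 and 2.30 at 24 h. Ifit1 ratios were 1.00, 0.986 and 1.05 at 0 h, 27.2, 23.5 and 23.8 at 6 h, 6.31, 6.35 and 5.69 at 12 h and 1.91, 1.38 and 1.495 at 24 h. The 12 h arrays exceeded the 6 h arrays in the scanner values, and the reverse held in the table. Ifit1 rose by 1.69 ± 0.058 and 3.90 ± 0.058 in the scanner values and by 4.61 ± 0.11 and 2.59 ± 0.11 in the table.

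Ifit2 scanner values were 1.08, 1.07 and 1.18 at 0 h, 2.63, 2.47 and 2.60 at 6 h, 4.63, 4.67 and 4.52 at 12 h and 1.28, 1.29 and 1.30 at 24 h. Ifit2 ratios were 0.977, 1.00 and 1.08 at 0 h, 24.8, 21.9 and 21.2 at 6 h, 5.55, 5.66 and 4.71 at 12 h and 1.95, 1.53 and 1.40 at 24 h. All 6 samples at 6 h and 12 h were above 0 h in both sources. Ifit2 rose by 1.46 ± 0.056 and 3.50 ± 0.056 in the scanner values and by 4.47 ± 0.12 and 2.38 ± 0.12 in the table.

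Ifit3 scanner values were 3.12, 3.15 and 3.18 at 0 h, 3.66, 3.47 and 3.53 at 6 h, 6.05, 6.11 and 5.98 at 12 h and 3.28, 3.31 and 3.28 at 24 h. Ifit3 ratios were 1.00, 0.930 and 1.12 at 0 h, 18.8, 16.3 and 15.3 at 6 h, 5.18, 5.35 and 4.71 at 12 h and 2.16, 1.75 and 1.69 at 24 h. The size at 6 h differed between the sources, where the scanner values changed by 0.40 ± 0.054, which was not called, and the ratios rose by 4.04 ± 0.11 (adjusted p = 5.57e-10). At 12 h Ifit3 rose by 2.90 ± 0.054 and 2.32 ± 0.11. The Ifit genes share sequence with each other, and cross-hybridisation between their probes was not tested.

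Bst2 encodes tetherin, which holds budding virus at the cell surface, and Ifitm3 encodes a membrane protein that blocks viral entry. Bst2 was saturated on all 3 arrays at 12 h and was at least 6.51-fold higher than at 0 h in the scanner values. In the table it rose by 1.07 ± 0.057 at 6 h and 1.504 ± 0.057 at 12 h, and it was one of the 3 members still called higher at 24 h, with 1.21 ± 0.057. With quantile scaling of the table it was not called at 24 h (0.996) or 6 h (0.86), nor at 6 h with column medians at 0 (0.94), and its scanner call at 6 h was lost with normexp and quantile scaling (0.87). Ifitm3 was saturated on 2 of 3 arrays at 12 h, and its scanner change there, 1.42 ± 0.046 with those spots taken at their value, may be understated. The table gave -0.93 ± 0.054 for Ifitm3 at 12 h, which was under 2-fold, and a fall of 1.69 at 24 h. With column medians at 0 the table had Ifitm3 called lower at 12 h (-1.16).

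ISG15 is a ubiquitin-like protein that is attached to other proteins, and Usp18 removes it and restrains the interferon receptor. Isg15 scanner values were 3.45, 3.52 and 3.50 at 0 h, 6.45, 6.26 and 6.43 at 6 h, 7.48, 7.82 and 7.50 at 12 h and 3.56, 3.52 and 3.58 at 24 h. Isg15 ratios were 1.00, 0.939 and 1.01 at 0 h, 15.1, 15.3 and 13.6 at 6 h, 5.70, 5.78 and 5.52 at 12 h and 1.62, 1.40 and 1.48 at 24 h. Both sources had every sample at 6 h and 12 h above 0 h, and the order of 6 h and 12 h was reversed between them. Isg15 rose by 2.89 ± 0.088 at 6 h in the scanner values, and its saturated spots at 12 h gave a change of at least 17.3-fold. In the table it rose by 3.90 ± 0.068 at 6 h (adjusted p = 2.6e-11) and 2.53 ± 0.068 at 12 h.

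Usp18 scanner values were 4.01, 4.02 and 3.996 at 0 h, 5.19, 5.07 and 5.13 at 6 h, 6.92, 6.88 and 7.04 at 12 h and 4.17, 4.20 and 4.17 at 24 h. Usp18 ratios were 1.00, 0.949 and 1.08 at 0 h, 2.32, 2.14 and 2.15 at 6 h, 1.24, 1.31 and 1.17 at 12 h and 0.769, 0.694 and 0.726 at 24 h. Samples at 6 h were above 0 h in both sources, and at 24 h the ratios were below it. Usp18 rose by 1.12 ± 0.047 and 2.94 ± 0.047 in the scanner values and by 1.13 ± 0.068 at 6 h in the table, where 12 h gave 0.30 ± 0.068. Its 6 h calls were lost with quantile scaling in the scanner values (0.89) and the table (0.75), with normexp and quantile scaling in the first (0.84) and with column medians at 0 in the second (0.99).

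Parp9, Parp12 and Parp14 encode ADP-ribosyltransferase family proteins induced by interferon. In the scanner values 1 of 3 was called higher at 6 h and 3 of 3 at 12 h, against 10.2% and 13.7% of all genes. The ratios had 1 of 3 at each time, against 13.3% and 15.7%, and no member was lower in either source. With 3 genes, a count of 1 does not set them apart from all genes. Parp12 scanner values were -0.02, -0.01 and -0.02 at 0 h, 0.91, 0.69 and 0.80 at 6 h, 2.82, 2.87 and 2.77 at 12 h and 0.02, 0.08 and 0.16 at 24 h. Parp12 ratios were 0.938, 1.00 and 1.04 at 0 h, 2.14, 1.85 and 1.89 at 6 h, 1.26, 1.29 and 1.23 at 12 h and 1.00, 0.933 and 0.981 at 24 h. Neither source called it at 6 h, with 0.82 ± 0.059 and 0.98 ± 0.065, although no 6 h sample overlapped 0 h. Parp12 rose by 2.84 ± 0.059 at 12 h in the scanner values.

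Parp9 scanner values were 1.502, 1.42 and 1.51 at 0 h, 2.43, 2.08 and 2.37 at 6 h, 3.72, 3.73 and 3.46 at 12 h and 1.58, 1.66 and 1.65 at 24 h. Parp9 ratios were 1.01, 0.920 and 1.00 at 0 h, 1.96, 1.93 and 1.82 at 6 h, 1.34, 1.39 and 1.20 at 12 h and 0.754, 0.787 and 0.855 at 24 h. Its 6 h samples were above 0 h in both sources by less than 2-fold, 0.82 ± 0.097 and 0.96 ± 0.073. Parp9 rose by 2.16 ± 0.097 at 12 h in the scanner values, and the table gave 0.42 ± 0.073.

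Parp14 scanner values were 4.87, 4.81 and 4.84 at 0 h, 5.91, 5.84 and 5.89 at 6 h, 6.84, 6.72 and 6.88 at 12 h and 5.00, 5.06 and 5.08 at 24 h. Parp14 ratios were 1.00, 0.909 and 1.22 at 0 h, 4.07, 3.44 and 3.31 at 6 h, 2.50, 2.50 and 2.30 at 12 h and 1.42, 1.36 and 1.44 at 24 h. It was called higher at 6 h and 12 h in both sources, by 1.04 ± 0.049 and 1.97 ± 0.049 in the scanner values and 1.79 ± 0.11 and 1.23 ± 0.11 in the table. One of its further probes gave -0.38 at 6 h in the scanner values and -0.06 in the table, and the mean of its probes was not called at 6 h in the scanner values (0.66) or at 12 h in the table (0.34). Quantile scaling lost its call at 6 h in the scanner values (0.81) and at 6 h (1.13) and 12 h (0.59) in the table.

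The p200 proteins bind DNA in the nucleus and cytoplasm, and their genes are close relatives whose probes may not tell them apart. Ifi204 scanner values were 4.27, 4.30 and 4.30 at 0 h, 5.18, 4.98 and 5.20 at 6 h, 7.03, 6.90 and 6.95 at 12 h and 4.42, 4.38 and 4.39 at 24 h. Ifi204 ratios were 1.00, 0.943 and 1.02 at 0 h, 2.52, 2.26 and 2.25 at 6 h, 0.781, 0.761 and 0.722 at 12 h and 0.681, 0.607 and 0.603 at 24 h. The 12 h samples were the highest in the scanner values and were below 0 h in the table. Ifi204 rose by 2.67 ± 0.06 at 12 h in the scanner values and by 1.25 ± 0.068 at 6 h in the table, where one further probe gave -0.80. At 12 h that further probe was called in opposite directions, 2.04 in the scanner values and -2.67 in the table. The mean of the Ifi204 probes in the table was not called at 6 h (0.73). That mean was called lower at 12 h (-1.005) and 24 h (-1.37). With quantile scaling of the table the rise at 6 h was not called (0.99).

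Ifi205 scanner values were 3.84, 3.79 and 3.82 at 0 h, 5.07, 4.89 and 4.99 at 6 h, 6.25, 6.33 and 6.18 at 12 h and 3.87, 3.91 and 3.92 at 24 h. Ifi205 ratios were 1.00, 0.986 and 1.05 at 0 h, 0.644, 0.546 and 0.557 at 6 h, 0.156, 0.159 and 0.146 at 12 h and 0.113, 0.103 and 0.103 at 24 h. Every exposed sample at 6 h and 12 h was above 0 h in the first source and below it in the second. Ifi205 rose by 1.17 ± 0.053 and 2.44 ± 0.053 in the scanner values (adjusted p = 6.54e-11 at 12 h). The table gave -0.80 ± 0.073 at 6 h, under 2-fold, and falls of 2.72 at 12 h (adjusted p = 3.18e-10) and 3.25 at 24 h. A further Ifi205 probe rose at 6 h in both sources, by 3.30 and 1.14, and at 12 h it too was called in opposite directions, 4.44 and -1.16.

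The remaining 5 members encode proteins with varied or less settled roles. At 12 h 5 of 5 were called higher in the scanner values, against 13.7% of all genes. The table had 1 of 5 (20%) higher at 12 h, near the 15.7% of all genes. Ifi35 encodes an interferon-induced leucine zipper protein. Ifi35 scanner values were 2.81, 2.83 and 2.85 at 0 h, 4.03, 3.54 and 3.97 at 6 h, 5.48, 5.40 and 5.49 at 12 h and 2.97, 2.96 and 2.93 at 24 h. Ifi35 ratios were 1.00, 0.886 and 1.03 at 0 h, 1.16, 1.22 and 1.15 at 6 h, 0.783, 0.803 and 0.737 at 12 h and 0.538, 0.540 and 0.541 at 24 h. It rose by 1.02 ± 0.11 at 6 h, a call lost when 6 h replicate 1 (0.92) or 6 h replicate 3 (0.955) was left out, and by 2.62 ± 0.11 at 12 h in the scanner values. The table called it at no time.

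Ifi44 encodes an interferon-induced cytoplasmic protein. Ifi44 scanner values were 2.53, 2.62 and 2.69 at 0 h, 3.49, 3.07 and 3.19 at 6 h, 5.22, 5.37 and 4.99 at 12 h and 2.64, 2.69 and 2.66 at 24 h. Ifi44 ratios were 0.927, 1.00 and 1.07 at 0 h, 2.81, 2.18 and 2.31 at 6 h, 0.857, 0.890 and 0.775 at 12 h and 0.310, 0.177 and 0.218 at 24 h. Its ratios peaked at 6 h and at 24 h were below every 0 h sample, and its scanner values peaked at 12 h. Ifi44 rose by 2.58 ± 0.12 at 12 h in the scanner values, and in the table it rose by 1.28 ± 0.18 at 6 h and fell by 2.13 at 24 h.

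Rtp4 encodes a chaperone that carries receptors to the cell surface. Rtp4 scanner values were 5.10, 5.08 and 5.13 at 0 h, 5.06, 4.98 and 5.06 at 6 h, 7.07, 7.16 and 7.08 at 12 h and 5.29, 5.30 and 5.32 at 24 h. Rtp4 ratios were 1.00, 0.963 and 1.04 at 0 h, 1.58, 1.43 and 1.28 at 6 h, 0.491, 0.527 and 0.486 at 12 h and 0.305, 0.180 and 0.191 at 24 h. The 6 h arrays did not lie above those at 0 h in the scanner values, and the 12 h samples lay above them in the scanner values and below them in the table. Rtp4 rose by 2.00 ± 0.04 at 12 h in the scanner values, whereas the table gave -0.998 ± 0.17, just under 2-fold, and a fall of 2.20 at 24 h. With column medians at 0 the table had Rtp4 called lower at 12 h (-1.23). The same call was made with 0 h replicate 2 (-1.03) or 12 h replicate 2 (-1.03) left out.

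Ly6c1 and Ly6a encode surface proteins anchored by a lipid, and their genes are neighbours. Ly6c1 scanner values were 1.53, 1.53 and 1.52 at 0 h, 1.75, 1.67 and 1.80 at 6 h, 3.83, 3.86 and 3.73 at 12 h and 1.57, 1.60 and 1.56 at 24 h. Ly6c1 ratios were 1.00, 0.923 and 1.01 at 0 h, 1.73, 1.66 and 1.70 at 6 h, 1.97, 1.76 and 1.84 at 12 h and 0.426, 0.455 and 0.448 at 24 h. The 12 h samples were highest in both sources, and the table alone placed 24 h below 0 h. Ly6c1 rose by 2.28 ± 0.046 at 12 h in the scanner values and in the table changed by 0.93 ± 0.058 at 12 h and fell by 1.14 at 24 h.

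Ly6a scanner values were -2.52, -2.58 and -2.41 at 0 h, -4.48, -3.84 and -4.00 at 6 h, -0.41, -0.51 and -0.51 at 12 h and -2.36, -2.61 and -2.45 at 24 h. Ly6a ratios were 1.00, 1.27 and 0.889 at 0 h, 2.43, 1.97 and 2.10 at 6 h, 3.01, 3.33 and 3.15 at 12 h and 2.22, 3.02 and 2.89 at 24 h. This was the member with opposite calls at 6 h, when every array lay below 0 h in the scanner values and every ratio lay above it. Ly6a fell by 1.60 at 6 h in the scanner values (adjusted p = 2.88e-06) and rose by 1.05 ± 0.15 in the table (adjusted p = 0.000105). At 12 h it rose in both, by 2.03 ± 0.14 and 1.60 ± 0.15. Its spots were dim, 1 of the 12 was not well above background, and the scanner fall at 6 h was -0.55 and not called after normexp correction and quantile scaling. The rise in the table at 6 h was not called with 0 h replicate 3 (0.94) or 6 h replicate 1 (0.97) left out. Nor was it called with quantile scaling of the table (0.53) or with column medians at 0 (0.92). Quantile scaling also lost the table's calls of Ly6a at 12 h (0.88) and 24 h (0.80).

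Other genes of the pathway were counted from lists drawn up with earlier results known. Of the interferons and the receptor, 3 of 5 genes were measured. Ifnb1, the interferon beta gene, rose by 3.06 ± 0.07 at 6 h and 2.17 ± 0.07 at 12 h in the scanner values, and by 5.23 ± 0.12, 4.35 ± 0.12 and 3.23 ± 0.12 at 6, 12 and 24 h in the table. Between 6 h and 12 h Ifnb1 was not called in either source, and in the scanner values it changed by -0.89 ± 0.07. Ifnar1 and Ifnar2, the receptor chains, rose by 1.70 ± 0.075 and 1.31 ± 0.062 at 6 h in the table and were not called in the scanner values.

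Of 9 genes of receptor signalling, 3 were called higher at 6 h and 6 at 12 h in the scanner values. The shares of all genes were 10.2% and 13.7%. The table had 2 higher (22.2%) at each time, against 13.3% and 15.7% of all genes. With 9 genes, a count of 2 does not set them apart from all genes. Socs3, a feedback inhibitor of cytokine receptors, rose by 6.17 ± 0.068 at 12 h in the scanner values and 1.64 ± 0.068 in the table. Socs1, a feedback inhibitor of JAK kinases, rose by 4.03 ± 0.049 in the scanner values and gave -0.59 ± 0.062 in the table. Stat3 rose by 2.31 ± 0.045 in the scanner values and gave 0.76 ± 0.063 in the table. Stat2 and Irf9 are named outside the naming rule, after their values were seen. Stat2 rose by 1.85 ± 0.055 at 12 h in the scanner values and gave -0.50 ± 0.051 in the table, and Irf9 gave 1.00 ± 0.05 and -0.38 ± 0.081, the first just past 2-fold.

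Among 13 measured genes that drive interferon induction, 4 were called higher at 6 h and 7 at 12 h in the scanner values. The table had 6 higher at each time. The shares of all genes were 10.2% and 13.7% in the scanner values and 13.3% and 15.7% in the table. Irf7, the factor that amplifies interferon production, rose by 1.92 ± 0.071 and 4.51 ± 0.071 in the scanner values and by 2.19 ± 0.088 and 1.80 ± 0.088 in the table. Ikbke, a kinase that activates interferon regulatory factors, rose by 2.46 ± 0.073 and 1.88 ± 0.07 at 12 h. Irf8, a factor of dendritic cell development, rose by 2.16 ± 0.049 and 1.73 ± 0.069.

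Interferon-induced GTPases, which attack the vacuoles of intracellular microbes, are a further class of interferon-stimulated genes outside the set. Of 12, 8 were called higher at 6 h, 12 at 12 h and 12 from 6 h to 12 h in the scanner values. The shares of all genes were 10.2%, 13.7% and 4.88%. The ratios had 9 higher at 6 h, 5 higher and 1 lower at 12 h, and 6 lower from 6 h to 12 h. Here the shares of all genes were 13.3%, 15.7% and 12.1%, and 2.73%. Gbp5 rose by 4.97 ± 0.064 at 12 h in the scanner values and 2.65 ± 0.064 in the table, Gbp6 by 4.46 ± 0.072 and 3.05 ± 0.091, and Gbp2 by 4.28 ± 0.045 and 3.54 ± 0.07.

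NF-kB targets, the inflammatory genes switched on directly by Toll-like receptor signalling, gave a reference outside the interferon response. Of 13, 13 were called higher at 6 h and 13 at 12 h in both sources. The shares of all genes were 10.2% and 13.7% in the scanner values and 13.3% and 15.7% in the table. From 6 h to 12 h 0 of the 13 were called in either direction in either source. Of all genes, 4.88% were called higher and 2.1% lower in the scanner values, and 3.07% and 2.73% in the table. With shares so small, 0 of 13 does not set these genes apart from all genes. At an unadjusted p under 0.05 in limma, 8 were higher and 3 lower between these times in the scanner values, and 0 higher and 8 lower in the table. Ptgs2, the inducible cyclooxygenase, changed by -0.49 ± 0.24 from 6 h to 12 h in the scanner values and -0.80 ± 0.07 in the table. Cxcl1 and Cxcl2, neutrophil-attracting chemokines, changed by -0.93 ± 0.088 and -0.80 ± 0.057 in the scanner values. At 24 h 10 of 13 were still called higher in the table, against 13.3% of all genes, and 0 in the scanner values, against 0.696%. In the scanner values 2 were higher and 1 lower at 24 h at an unadjusted p under 0.05 in limma.

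**Figure D4:**
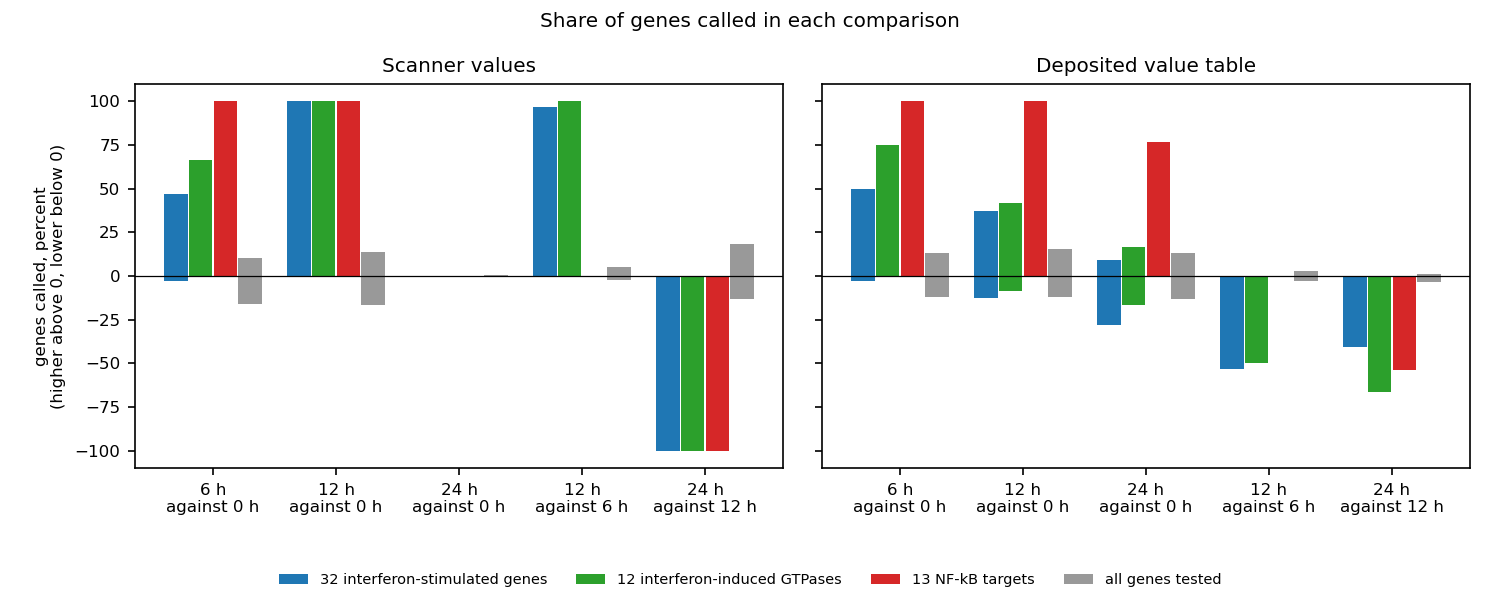
Percent of genes called higher (bars above 0) or lower (bars below 0) in each comparison, for the 32 members, 12 GTPases, 13 NF-kB targets and all 18404 genes tested, in the scanner values (left) and the value table (right). From 6 h to 12 h the bars of the members point up on the left and down on the right, and the NF-kB targets have no bar in either panel.

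Markers of other cells moved with time in some comparisons. Of 8 granulocyte genes 7 were measured and all 7 were well above background on all 12 arrays. Their summed scanner level, as a multiple of the array's 75th percentile, ranged from 172.1 to 176.3 at 0 h, 158.3 to 179.9 at 6 h, 192.6 to 216.6 at 12 h and 172.9 to 179.4 at 24 h. Their median ratio in the table was 0.999 to 1.05 at 0 h, 0.697 to 0.745 at 6 h, 0.448 to 0.485 at 12 h and 0.163 to 0.176 at 24 h, and 6 of the 7 were called lower at 24 h, when 9 members were too. Of 7 genes of plasmacytoid dendritic cells, a type known for making interferon, 6 were measured, and their summed scanner level was 17.1 to 17.5 at 0 h, 11.9 to 13.03 at 6 h, 14.0 to 15.3 at 12 h and 17.2 to 17.3 at 24 h. Their median ratio in the table was 0.957 to 1.03 at 0 h, 1.16 to 1.60 at 6 h, 1.10 to 1.33 at 12 h and 0.886 to 1.22 at 24 h. The 6 genes did not move together. In the scanner values 1 was called higher and 3 lower at 6 h, and 2 higher and 3 lower at 12 h. The table had 2 higher and 2 lower at each of these times. Of all genes, 10.2% were higher and 15.9% lower at 6 h in the scanner values, and 13.7% and 16.9% at 12 h. In the table the shares were 13.3% and 11.8% at 6 h, and 15.7% and 12.1% at 12 h. Summed levels of the 7 dendritic cell genes were 354.9 to 374.8 at 0 h, 404.6 to 465.4 at 6 h, 517.4 to 567.0 at 12 h and 354.4 to 363.0 at 24 h. Of these 7, 2 were called higher and 1 lower at 12 h in the scanner values, with a median change of 0.22. Their median ratio in the table was 0.983 to 1.04 at 0 h, 1.24 to 1.401 at 6 h, 1.12 to 1.21 at 12 h and 0.746 to 0.825 at 24 h.

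Macrophage genes, 4 of 6 measured, summed to 134.7 to 136.1 at 0 h, 137.7 to 153.6 at 6 h, 261.3 to 289.4 at 12 h and 133.6 to 141.5 at 24 h. Of the 4, 1 was called higher and 1 lower at 12 h in the scanner values, against 13.7% and 16.9% of all genes. The median ratio of the 4 genes in the table was 0.982 to 1.05 at 0 h, 0.510 to 0.554 at 6 h, 0.494 to 0.537 at 12 h and 0.801 to 0.835 at 24 h. Natural killer cell genes, 2 of 4 measured, summed to 3.16 to 3.33 at 0 h, 0.0756 to 0.132 at 6 h, 0.467 to 0.522 at 12 h and 3.63 to 3.73 at 24 h, and Klrb1c was not above background at 6 or 12 h. Summed levels on single arrays ranged from 0.275 to 0.57 for 2 B cell genes, from 0.458 to 1.04 for 4 T cell genes and from 0.951 to 1.80 for 3 mast cell genes. The part of any of these cells in the members' changes was not tested.

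Over all 32 members the change at 6 h correlated between the sources at r = 0.71 (Spearman rho 0.68), and the change at 12 h at r = 0.67 (rho 0.64). At 24 h r was 0.08 (rho 0.02). The scanner change at 12 h correlated with the table's change at 6 h at r = 0.78 (rho 0.74), above both of the matched times. Over all genes this cross gave r = 0.639, which was below the matched 6 h (0.729) and above the matched 12 h (0.538). These are descriptions across genes, which are not independent replicates, and the points share their 0 h samples.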

How the data were processed

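Total RNA of 12 samples, 3 at each of 4 times, was hybridised to 1-colour arrays. Intensity values in the scanner files that the authors deposited came from Agilent Feature Extraction 9.1.3.1, per the submitters' processing notes, and are background-subtracted processed signals. The deposited value table holds linear ratios, relative to each probe's 0 h median, and its lowest value is 0.01. How its columns were scaled, and a genome build, are not given in the sources used here.

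Scanner values were log2 transformed, each array's 75th percentile over non-control spots was subtracted, and 732 outlier spots were left out. Probes well above background on all 3 arrays of at least 1 group were kept, 23493 in all. Accessions were matched to RefSeq (GRCm38.p6, names and promoter windows only), which named 22951 of 41174 probes (55.7%). A gene with several kept probes was represented by the one of highest mean. Of 12 members with several kept probes, 0 had probes called in both directions in any comparison of a source. Probes without a symbol counted under their accession, so 11578 of 18404 genes had a symbol.

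Both sources were fitted for the same genes with limma 3.58.1 (R version 4.3.3, files read with data.table, version 1.17.8), as 4 group means over 12 samples with 8 residual degrees of freedom, two-sided, with Benjamini-Hochberg adjustment over all genes. The number of arrays limits the precision. The fit was tested on simulated data. Members saturated on all 3 arrays of a group are given as bounds, the mean of that group over the measured mean of the other. Where only some arrays of a group were saturated, those spots were kept at their value. The members, roles, lists and alternatives were chosen with earlier results of these data known. Every measured member is named with its change. Values per sample are given for the 3 members of each role with the largest scanner change at 6 or 12 h and for members with opposite calls. Up to 3 genes per pathway list, those with the largest change, are named. The files hold no mean signal, so the normexp alternative used the median signal and median background. Other alternatives were quantile scaling, column medians, other filters, probe means, slide and replicate blocks and leaving out samples.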

Additional observations from a re-analysis of the deposited data

Results flagged for a closer look

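Each change between neighbouring times was tested directly for the same genes. From 6 h to 12 h, 31 members were called higher in the scanner values, against 4.88% of all genes. Between these times 17 members were called lower in the value table, against 2.73%. From 12 h to 24 h, 32 members were called lower in the scanner values and 13 in the value table. The shares of all genes were 12.9% and 3.17%. Whether the later change differed from the earlier was not tested. Both changes use the same 12 h samples with opposite sign, so they are not independent. The difference between the sources was not tested, since both carry the labels of the same 12 samples.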

How the results depend on the processing

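Of 388 recomputed counts of called members, 382 stayed within 1.5 times the reported count, and 6 did not. In the scanner values the 1 member lower at 6 h became 0 after normexp correction with quantile scaling and 0 under the stricter filter. That filter tests 30 members and leaves out Ly6a and Oas1g, and no call of the 30 changed under it. Quantile scaling of the value table gave 10 members higher at 6 h in place of 16, 0 lower at 6 h in place of 1, 1 higher at 24 h in place of 3, and 5 lower from 12 h to 24 h in place of 13. The cause was not tested. Leaving out each sample in turn gave 14 to 15 higher and 1 lower at 6 h, 32 higher at 12 h, 31 higher from 6 h to 12 h and 32 lower from 12 h to 24 h in the scanner values. In the value table it gave 15 to 17 higher and 1 lower at 6 h, 12 higher and 4 to 5 lower at 12 h, 3 higher and 9 to 10 lower at 24 h, 15 to 18 lower from 6 h to 12 h and 12 to 13 lower from 12 h to 24 h. Counts of 0 stayed at 0. Of 6198 recomputed changes of single members, 6121 kept their call, 58 lost one, 19 gained one and 0 reversed. Leaving out the 24 h samples, or all arrays of slide 3, an alternative chosen after seeing the data, left these counts as reported. With the replicate block 15 members were higher at 6 h and 32 at 12 h in the scanner values, and no call of a member changed. Deviations of same-numbered samples from their group means ranged from r of -0.20 to 0.18 in the scanner values and -0.23 to 0.29 in the value table (18 pairs per source). For samples of different number the ranges were -0.24 to 0.22 and -0.26 to 0.31 (36 pairs per source). No pairing by number was seen, but with 3 samples in a group this check cannot exclude it.

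Over all genes, normexp with quantile scaling called 1075 higher and 1496 lower at 6 h in place of 1870 and 2928, and 1377 and 1816 at 12 h in place of 2523 and 3106. At 24 h it called 4 and 5 in place of 128 and 26, and the slide block 9 and 14. From 6 h to 12 h it called 391 and 162 in place of 899 and 387, and from 12 h to 24 h 1808 and 1377 in place of 3340 and 2371. In the value table, of genes called at 6 h 52.9% were higher, against 41.0% with quantile scaling and 44.0% with column medians set to 0. At 12 h the shares were 56.5%, 43.3% and 42.5%, and from 12 h to 24 h 30.6%, 41.8% and 45.0%. Between 6 h and 12 h the share went from 53.0% to 39.1% with column medians. Quantile scaling called 1106 higher and 1591 lower at 6 h in place of 2439 and 2170, and 97 and 88 from 6 h to 12 h in place of 565 and 502. From 12 h to 24 h it called 46 and 64 in place of 257 and 584.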
